A study of Homo sapiens with 5 samples.

Results

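The genes described here are 7 chains of the major histocompatibility complex (MHC) class II molecules (HLA-DPA1, HLA-DPB1, HLA-DOA, HLA-DRA, HLA-DRB1, HLA-DRB5 and HLA-DMA), their chaperone CD74 and their transactivator CIITA. They were taken by gene symbol, and all 9 were found among the 28278 symbols of the count table. They were chosen with the counts of this comparison known, so their differences between the groups are given as a description, without a test. RNA came from HEK293T, an established line derived from human embryonic kidney, and was sequenced in 3 control libraries (labelled WT) and 2 libraries of cells given ascorbic acid (vitamin C). All cells were grown in the same serum-containing medium and seeded for 24 h, and treated cells then received ascorbic acid for 24 or 36 h with fresh medium every 6 h. The labels tie 24 h to DNA methylation and 36 h to RNA methylation. They do not say which applies to these libraries, and give no dose. For the controls they give neither a time after seeding nor a medium change. Ascorbic acid, repeated fresh medium and time in culture therefore cannot be told apart in the differences below. No label states that each library is its own culture, so the p-values below reflect how these libraries varied, and that variation may be technical.

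MHC class II molecules are pairs of an alpha and a beta chain that show peptides from taken-up proteins to CD4 T cells. The classical pairs are HLA-DR, HLA-DP and HLA-DQ. In the endoplasmic reticulum they are held by CD74, the invariant chain, and in late endosomes HLA-DM exchanges the remaining CD74 fragment for peptide while HLA-DO restrains HLA-DM. These genes are mainly active in B cells, dendritic cells and macrophages. Their promoters share an X box, bound by the RFX complex, and a Y box, bound by NF-Y, and CIITA, which binds no DNA itself, is recruited to them. Interferon gamma can switch CIITA on in other cell types.

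Promoter stretches are shown because they hold the letters by which the class II genes are read together. Windows of 250 bases upstream of the start were taken from RefSeq (GRCh38.p14) and matched 7 of the 9 genes by symbol. HLA-DRA and CIITA are named only. Both strands were searched for the X1 part of the X box, a consensus of 14 letters that the capitals of HLA-DMA meet without a mismatch, and for ATTGG, the core of the Y box. Each line gives 90 bases, 5′ to 3′ on the strand of the gene, with matches to X1 (up to 2 mismatches) and to ATTGG or its reverse complement in capitals (the stretch of HLA-DMA ends inside a further ATTGG).
HLA-DPA1 (chr6:33073682-33073771, minus strand): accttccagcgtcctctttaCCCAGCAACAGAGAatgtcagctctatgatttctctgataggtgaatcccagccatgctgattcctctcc
HLA-DPB1 (chr6:33075835-33075924, plus strand): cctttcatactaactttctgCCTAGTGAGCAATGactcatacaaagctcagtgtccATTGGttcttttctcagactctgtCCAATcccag
HLA-DOA (chr6:33009626-33009715, minus strand): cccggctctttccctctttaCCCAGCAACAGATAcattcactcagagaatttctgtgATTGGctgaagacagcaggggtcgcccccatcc
HLA-DRB1 (chr6:32589861-32589950, minus strand): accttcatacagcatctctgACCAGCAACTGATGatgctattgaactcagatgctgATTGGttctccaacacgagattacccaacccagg
HLA-DRB5 (chr6:32530344-32530433, minus strand): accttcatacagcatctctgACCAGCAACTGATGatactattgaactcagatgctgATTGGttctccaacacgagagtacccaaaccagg
HLA-DMA (chr6:32953144-32953233, minus strand): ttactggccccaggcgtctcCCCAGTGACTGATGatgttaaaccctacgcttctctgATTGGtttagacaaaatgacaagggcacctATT
CD74 (chr5:150412925-150413014, minus strand): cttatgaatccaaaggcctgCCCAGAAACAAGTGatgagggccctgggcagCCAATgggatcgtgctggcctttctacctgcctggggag

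An X1 match was followed by ATTGG on the same strand in 5 of these 7 genes: HLA-DPB1 (2 mismatches in X1), HLA-DOA (1), HLA-DRB1 (1), HLA-DRB5 (1) and HLA-DMA (0). In all 5 the letters between the matches numbered 22 or 23. The pairing was not particular to these genes. Among the other class II chain genes HLA-DQB1 (0 mismatches in X1), HLA-DQB2 (1) and HLA-DOB (1) had it too, with 21 or 22 letters between. HLA-DQA1, HLA-DQA2 and HLA-DMB did not have it. Over 35116 RefSeq windows of the same length, X1 with up to 2 mismatches was found in 18.0%, ATTGG in 32.0%, and X1 followed by ATTGG after 5 to 30 bases in 0.382%. HLA-DPA1 had X1 with 2 mismatches and no ATTGG in this window, and neither in the window of a second listed start. CD74 had X1 with 2 mismatches and ATTGG on the opposite strand. The stretches of HLA-DRB1 and HLA-DRB5 were identical at 87 of 90 bases. A letter match is a description of the sequence and no measure of binding.

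The control libraries held 35106664 to 57212071 gene counts and the treated libraries 41739602 and 48015766. Even numbers made up 71.3 to 75.9% of the counts from 1 to 10, as when both ends of a pair are counted, and the true counting error would then exceed that of the printed counts. Levels are given as CPM (counts scaled to library totals), with the totals adjusted by the trimmed mean of M values (TMM). Of 15271 genes tested in edgeR's quasi-likelihood test, 8.53% passed a Benjamini-Hochberg adjusted p of 0.05 as higher with ascorbic acid and 5.76% as lower. These shares varied with the level. At a mean of 0.25 to 1 CPM, 5.07% of 2092 genes passed as higher and 8.17% were at least 2-fold higher. At 1 to 5 CPM these shares were 14.5% and 2.80% of 2284 genes, and at 5 to 20 CPM 13.6% and 0.249% of 2810 genes. In bulk RNA, more cells with a transcript and more transcript per cell cannot be told apart.

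HLA-DP, HLA-DOA and HLA-DRB genes had more counts with ascorbic acid, while CIITA, HLA-DMA and CD74 did not separate the groups. HLA-DPA1 and HLA-DOA were each about 2-fold higher, and HLA-DRB1 was 1.55-fold higher. In every one of the 5 genes HLA-DPA1, HLA-DPB1, HLA-DOA, HLA-DRB1 and HLA-DRB5, both treated libraries lay above all 3 controls, and in no gene of the 9 did both lie below. Among all tested genes 22.6% had both treated libraries above the controls and 20.4% had both below, and among all genes with a count 19.5% had both above. The share of tested genes with both above was larger at the levels of the 5 genes, at 25.4% for a mean of 0.25 to 1 CPM, 35.2% for 1 to 5 CPM and 843 of 2810 genes for 5 to 20 CPM. For the 7 members with enough counts to be tested, the same 5 passed the adjusted p of edgeR, and since the genes were chosen on this comparison nothing is read from that count. Alternative settings re-fit the same libraries, so passes in them add no support either. The passes of HLA-DRB1, HLA-DRB5 and HLA-DPB1 were lost in some of those settings. HLA-DPB1 and HLA-DRB5 passed the count filter only through the treated libraries (a CPM of 0.240 was reached by 0 and 1 of the 3 controls), and HLA-DRA and CD74 did not pass it. Without a filter, the median log2 fold change was 0.88 over the 9 genes and 0.01 over 20841 genes with a count. At the low levels of the 9 genes the median of tested genes was itself above 0. It was 0.30 below a mean of 0.25 CPM, 0.20 at 0.25 to 1 CPM, 0.15 at 1 to 5 CPM and 0.05 at 5 to 20 CPM.

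**Figure D1:**
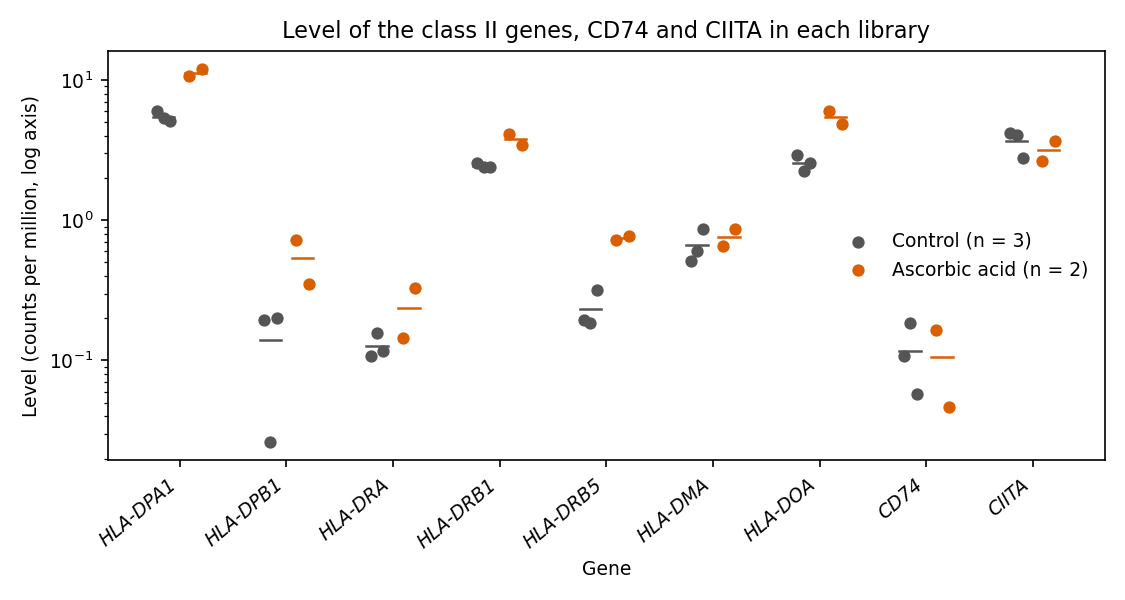
Level of each gene in CPM (log axis) in the 3 control libraries (grey) and the 2 ascorbic acid libraries (orange), with a line at each group's mean. HLA-DPA1 is at 5.14 to 5.99 CPM in controls and 10.6 and 11.9 CPM in treated libraries, while the CIITA groups overlap.

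HLA-DPA1 encodes the alpha chain of HLA-DP (chromosome 6, 33064569 to 33080775, minus strand, GENCODE release 29 on GRCh38). It had 337, 202 and 178 counts in control libraries 1 to 3 and 514 and 511 in the treated libraries. Both treated libraries were high and the groups did not overlap. Its level went from 5.48 ± 0.446 CPM in controls (SD, n = 3) to 11.3 ± 0.956 CPM with ascorbic acid (SD, n = 2), which is a log2 difference of 1.03 ± 0.11 (SE) and a fold of 2.04. With each library left out in turn the log2 fold change was 0.93 to 1.11. Alone among the 9 it was above 5 CPM in every library. HLA-DPB1, the beta chain of the same molecule (33075926 to 33087201, plus strand), was counted far less, with 11, 1 and 7 counts in controls and 35 and 15 in treated libraries. The treated libraries were again the higher ones, but the smaller of them had only 15 counts. For counting error alone the exact 95% Poisson interval is 8.40 to 24.7, and wider if both ends of a pair were counted. The log2 fold change of HLA-DPB1, 1.87 ± 0.54, ran from 1.25 without treated library 1 to 2.28 without treated library 2. The gene bodies of HLA-DPA1 and HLA-DPB1 overlap on opposite strands and share 96 exon bases, which is 1.7% of the exon length of HLA-DPA1 and 3.4% of that of HLA-DPB1.

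HLA-DRB1, the main beta chain of HLA-DR (32578769 to 32589848, minus strand), had 144, 91 and 83 counts in controls and 200 and 148 in treated libraries. Scaled for depth, the controls were close together at 2.39 to 2.56 CPM, and the treated libraries were at 4.12 and 3.46 CPM. The log2 fold change was 0.63 ± 0.16, from 0.49 without treated library 1 to 0.74 without treated library 2. HLA-DRB5, a second DR beta chain present on some haplotypes (32517343 to 32530287), had 11, 7 and 11 counts in controls against 35 and 33. Its groups did not overlap, at 0.184 to 0.318 CPM against 0.721 and 0.772 CPM, and the log2 fold change was 1.71 ± 0.42. HLA-DRA, the alpha chain that every DR beta chain needs (32439842 to 32445046, plus strand), had 6, 6 and 4 counts in controls and 7 and 14 in treated libraries. Treated library 2 was the highest of the 5, treated library 1 lay within the controls, and the gene was too low to test. Of the distinct 50-base stretches in GENCODE transcripts, 9.92% of those of HLA-DRB1 and 8.42% of those of HLA-DRB5 also occur in another gene, mostly in each other. Class II genes are also highly variable between people, and how far the alleles of this line differ from the reference was not tested.

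HLA-DOA and HLA-DMA are alpha chains of HLA-DO and HLA-DM, which act on peptide loading in endosomes, and whether their changes differed was not tested. HLA-DOA (33004178 to 33009612, minus strand) had 164, 86 and 88 counts in controls and 293 and 208 in treated libraries. Its treated libraries were at 6.04 and 4.86 CPM, above the controls at 2.26 to 2.91 CPM. The log2 fold change was 1.07 ± 0.15, and 0.90 to 1.21 with single libraries left out. HLA-DMA (32948613 to 32969094, minus strand) had 29, 23 and 30 counts in controls and 32 and 37 in treated libraries. Control library 3 and treated library 2 were the highest, at 0.867 and 0.865 CPM, and the groups overlapped. The log2 fold change of HLA-DMA was 0.23 ± 0.35, and it ran from 0.02 without treated library 2 to 0.45 without control library 3. HLA-DMA shares 55 exon bases, 2.2% of its exon length, with BRD2 on the opposite strand. BRD2 was at 766 CPM in controls, and its part in the counts of HLA-DMA was not tested.

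CD74, the invariant chain gene on chromosome 5 (150401637 to 150412929, minus strand), was close to absent. It had 6, 7 and 2 counts in controls and 8 and 2 in treated libraries. Both groups held a library with 2 counts, for which the exact 95% Poisson interval is 0.242 to 7.22. That interval too would be wider if both ends of a pair were counted. A difference in CD74 was not detectable at this depth. In antigen-presenting cells CD74 is among the abundant transcripts.

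CIITA, the transactivator gene on chromosome 16 (10866222 to 10943021, plus strand), had 235, 155 and 97 counts in controls and 129 and 158 in treated libraries. Control libraries 1 and 2 were highest at 4.17 and 4.08 CPM, control library 3 was at 2.80 CPM, and the treated libraries were at 2.66 and 3.69 CPM. The groups overlapped, and the log2 fold change of -0.24 ± 0.18 was -0.49 without treated library 2 and -0.01 without treated library 1. CIITA shares 11.6% of its exon length with DEXI on the opposite strand. Of the 50-base stretches of its transcripts 22.4% also occur in another annotated gene, and the part of either overlap in its counts was not tested.

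**Figure D2:**
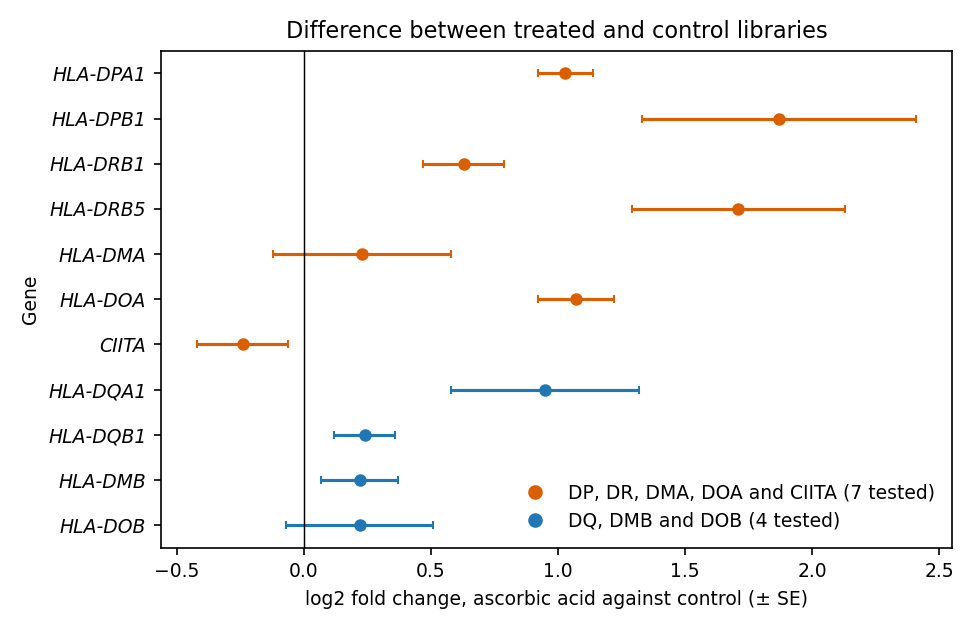
Log2 fold change (ascorbic acid against control, bars show SE) of the 7 tested genes of the set in orange and of the 4 other tested class II chain genes in blue. HLA-DPB1 and HLA-DRB5 have the largest values and the widest errors, and CIITA is at -0.24.

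Levels were compared between genes per exon length, as TPM (transcript levels scaled for gene length and depth). The length used joins all annotated exons of a gene: 1229 bases for HLA-DRB1, 5748 for HLA-DPA1 and 20757 for CIITA. The order below depends on that choice. In control CPM, HLA-DPA1 (5.48), CIITA (3.69) and HLA-DOA (2.57) stood above HLA-DRB1 (2.45). HLA-DRB1 was highest of the 9 in controls at 8.57 ± 0.322 TPM (SD, n = 3), then HLA-DPA1 at 4.10 ± 0.336 TPM and HLA-DOA at 2.76 ± 0.337 TPM, and the ranges of these 3 did not overlap. HLA-DMA (1.12 ± 0.302 TPM) and HLA-DRB5 (0.792 ± 0.246 TPM) overlapped, as did HLA-DRB5 and CIITA (0.764 ± 0.163 TPM). HLA-DRA was at 0.426 ± 0.0961 TPM. HLA-DPB1 (0.217 ± 0.152 TPM) and CD74 (0.157 ± 0.0878 TPM) were lowest and overlapped. The partner chains of DP and of DR were at unlike levels. HLA-DPA1 stood above HLA-DPB1, and HLA-DRB1 above HLA-DRA, in all 5 libraries, whereas the control ranges of HLA-DOA (2.45 to 3.12 TPM) and its partner HLA-DOB (1.53 to 2.67 TPM) overlapped. With ascorbic acid HLA-DRB1 was at 13.7 ± 1.44 TPM (SD, n = 2) and HLA-DRA at 0.821 ± 0.464 TPM, and HLA-DPA1 was at 8.70 ± 0.898 TPM and HLA-DPB1 at 0.848 ± 0.401 TPM.

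The remaining class II chain genes were looked up in the same libraries and were not part of the choice. Of 8 on this list 4 were tested, and edgeR called 0, as did DESeq2 and limma-voom, with 2 at an unadjusted p under 0.05. HLA-DQB1, the DQ beta chain, was the most abundant of them, with 373, 273 and 286 counts in controls and 459 and 332 in treated libraries. Its groups overlapped, and its log2 fold change was 0.24 ± 0.12 (edgeR adjusted p = 0.178). HLA-DMB, the partner of HLA-DMA, had means of 3.55 ± 0.383 CPM in controls (SD, n = 3) and 4.13 ± 0.646 CPM with ascorbic acid (SD, n = 2), with a log2 difference of 0.22 ± 0.15 (edgeR adjusted p = 0.366). HLA-DOB, the partner of HLA-DOA, had 0.22 ± 0.29 (edgeR adjusted p = 0.664). HLA-DQA1, the DQ alpha chain, had 24, 14 and 17 counts in controls and 31 and 44 in treated libraries, with both treated libraries the highest. Its log2 fold change was 0.95 ± 0.37 and did not pass (edgeR adjusted p = 0.0830). Whether these genes differed from HLA-DPA1 or HLA-DOA in their change was not tested. HLA-DRB3 and HLA-DRB4 had 0 counts in every library, and HLA-DQA2 and HLA-DQB2 had 0 to 8. Unlike the other class II chains, HLA-DRB3 and HLA-DRB4 had no gene model in the annotation used here for exon lengths. Whether their reads could be counted at all was not tested, so their 0 is not read as absence. Of 3 listed pseudogene or antisense genes in the table, HLA-DQB1-AS1 alone was tested and had 0.78 ± 0.55 (edgeR adjusted p = 0.373).

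No listed gene that acts on class II promoters passed the test. Of 14 promoter factors and coactivators edgeR called 0, as did DESeq2 and limma-voom, with 2 at an unadjusted p under 0.05 and log2 fold changes from -0.14 to 0.16. The RFX complex genes RFX5 (-0.05 ± 0.05), RFXAP (-0.01 ± 0.07) and RFXANK (0.04 ± 0.08) did not pass. EP300, a histone acetyltransferase, had -0.09 ± 0.05, and SMARCA4, a chromatin remodelling ATPase, had -0.06 ± 0.05. Of 12 tested regulators of CIITA edgeR called 0, as did DESeq2 and limma-voom, with 2 at an unadjusted p under 0.05. HDAC1 and HDAC2, histone deacetylases, had -0.12 ± 0.05 and -0.07 ± 0.04. Of 16 interferon gamma response genes 8 were tested, 0 rose and 1 fell in edgeR, with 3 at an unadjusted p under 0.05 and 1 called by both DESeq2 and limma-voom. WARS1, the tryptophanyl-tRNA synthetase, was the gene that fell, with 191 ± 5.39 CPM in controls (SD, n = 3) and 168 ± 0.854 CPM in treated libraries (SD, n = 2), a call that ended when a trend over expression was removed (adjusted p = 0.0521, limma after cyclic loess). IFI35 (0.73 ± 0.35, edgeR adjusted p = 0.167) and UBE2L6 (0.65 ± 0.28, edgeR adjusted p = 0.117) had both treated libraries above all controls and did not pass. The median log2 fold change of the 8 tested genes was 0.31. The interferon gamma targets CXCL9, CXCL10, IDO1 and GBP4 had 0 counts in every library.

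Among 11 tested genes of class II processing and trafficking 2 rose, 1 fell and 8 did not pass. IFI30, a lysosomal thiol reductase that opens disulfide bonds of antigens, had 228, 143 and 134 counts in controls and 328 and 288 in treated libraries. It rose from 3.89 ± 0.145 CPM in controls (SD, n = 3) to 6.75 ± 0.0195 CPM with ascorbic acid (SD, n = 2), up by 0.79 ± 0.13 on the log2 scale (edgeR adjusted p = 7.52e-05). CTSH, the lysosomal aminopeptidase cathepsin H, rose from 12.9 ± 0.616 CPM to 18.2 ± 0.950 CPM, by 0.50 ± 0.08 (edgeR adjusted p = 1.51e-04). Both treated libraries were above all controls for each of these genes. LGMN, the asparagine endopeptidase legumain, fell by 0.21 ± 0.05 on the log2 scale (edgeR adjusted p = 0.00832), a call that ended without control library 1 (adjusted p = 0.0553) or treated library 2 (0.0577). CTSS, the protease that trims CD74 in B cells and dendritic cells, had 0 to 10 counts per library and was not tested. Of the CD74 ligand and its partner receptors, edgeR, DESeq2 and limma-voom called 0 of 2 tested, with 0 at an unadjusted p under 0.05. CXCR4 had -0.16 ± 0.15 and CD44 had 0.17 ± 0.38. The ligand gene MIF is listed at 0 in every library, as is the immunoproteasome gene PSMB8 of the class II region, so a 0 in this table need not mean that no RNA was present.

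Class I molecules show peptides from inside the cell to CD8 T cells, and some of their genes, such as TAP2, lie in the class II region, while others, such as CANX and CALR, do not. Of 17 class I and peptide-loading genes tested 2 rose, 2 fell and 13 did not pass. TAP2, a subunit of the peptide transporter, rose from 39.3 ± 1.57 CPM in controls (SD, n = 3) to 49.0 ± 0.556 CPM with ascorbic acid (SD, n = 2), by 0.31 ± 0.06 (edgeR adjusted p = 6.09e-04), while the chaperones CANX (-0.21 ± 0.04) and CALR (-0.23 ± 0.05) fell. NLRC5, the class I counterpart of CIITA, had 48, 18 and 29 counts in controls and 60 and 60 in treated libraries, and its log2 fold change of 0.85 ± 0.29 just passed (edgeR adjusted p = 0.0495). That call ended with DESeq2 (adjusted p = 0.159), with the replicate number as a block (0.0703), against a fold of 1.2 (0.303), with the trend over expression removed (0.177) and without control library 1 or 2 or either treated library (0.0688 to 0.222).

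Markers of cells that normally carry class II molecules were at or near 0, and the part of other cells in these results was not tested beyond that. Among 12 B cell markers the summed level was 9.29 to 10.1 CPM in controls and 12.2 and 12.6 CPM in treated libraries. MS4A1 (CD20) and POU2AF1 had 0 counts in every library, and CR2, a complement receptor, made up most of the sum and rose by 0.46 ± 0.11 (edgeR adjusted p = 0.00483). Of 15 macrophage and dendritic cell markers 8 had 0 counts in every library, among them AIF1, TYROBP, CD163 and CD86, and the sum was 1.27 to 1.66 CPM in controls and 1.89 and 2.16 CPM in treated libraries. Of 2 tested, edgeR, DESeq2 and limma-voom called 0, with 1 at an unadjusted p under 0.05. The pan-leukocyte gene PTPRC (CD45) had 2 counts in control library 1 and 0 in the others. The 7 pan-leukocyte markers summed to 73.8 to 78.6 CPM in controls and 81.7 and 89.3 CPM in treated libraries, nearly all from the actin-bundling gene LCP1. LCP1 rose by 0.17 ± 0.05 (edgeR adjusted p = 0.0329) and was not called by DESeq2. Summed T cell markers were at 0.711 to 1.18 CPM in controls and 1.75 and 1.98 CPM in treated libraries. In that list CD3E, CD3G and CD2 were at 0, and CD8A rose by 0.96 ± 0.28 in edgeR (adjusted p = 0.0206) but not in DESeq2. Endothelial markers summed to 0.586 to 0.895 CPM in controls and 0.742 and 0.982 CPM in treated libraries, and fibroblast markers to at most 1.31 CPM and to 1.53 and 2.27 CPM, with 0 called in either list by edgeR, DESeq2 or limma-voom and 0 and 1 at an unadjusted p under 0.05. All 10 listed neural and renal genes that HEK293 cells express were tested, summing to 915 to 950 CPM in controls and 1002 and 1049 CPM in treated libraries, with 4 called higher and 1 lower. Vimentin made up most of that sum.

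Whether genes around the class II genes, CD74 and CIITA moved too was asked for the 64 other tested genes whose lowest coordinate is within 500 kb of that of HLA-DRA, HLA-DPA1, CD74 or CIITA. In edgeR's test 1 of them rose (1.56%, beside 8.53% of all tested genes) and 5 fell (7.81%, beside 5.76%), and their median log2 fold change was 0.01. These counts depended on the settings: 8 of 109 rose and 8 fell within 1000 kb, and 3 of 64 rose and 3 fell with library totals in place of TMM. The gene that rose was TAP2, which lies between HLA-DRA and HLA-DPA1 (at -242.7 kb from the latter). Among those that fell were PFDN6, a prefoldin subunit (-0.29 ± 0.06, edgeR adjusted p = 5.83e-04), and SLC39A7, a zinc transporter (-0.23 ± 0.05, edgeR adjusted p = 0.00294). BRD2, a bromodomain gene whose lowest coordinate lies between those of HLA-DMA and HLA-DOA, had 0.01 ± 0.04 (edgeR adjusted p = 0.864). Near CIITA 0 of 6 genes were called by edgeR, DESeq2 or limma-voom, with 0 at an unadjusted p under 0.05, and near CD74 1 of 14 fell.

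**Figure D3:**
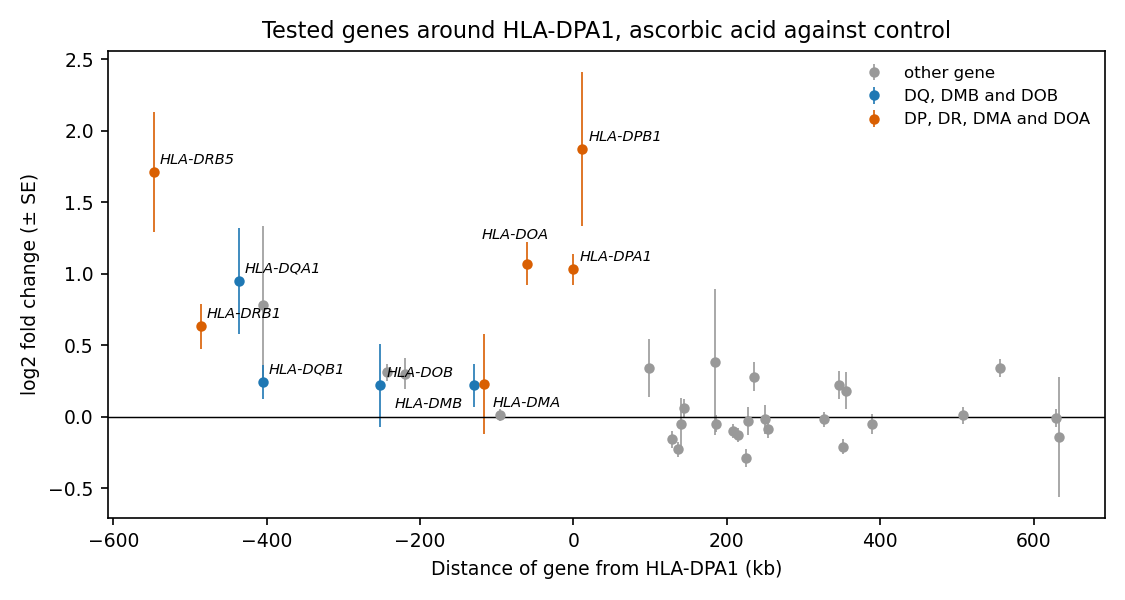
Log2 fold change (bars show SE) of tested genes by the distance of their lowest coordinate from that of HLA-DPA1 in kb, with class II chains in colour and other genes in grey. HLA-DOA and HLA-DPA1 are near 1, and BRD2 between HLA-DMA and HLA-DOA is at 0.01.

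The genes most like HLA-DPA1 in pattern were found by the root mean square difference of log2(CPM + 0.1), centred on the control mean, over the 5 libraries. Out of 10584 other genes at a mean level of 5 CPM or more, these were TRIM6 (0.0853), TACC2 (0.103), S100A11 (0.109), INPP5D (0.111) and FBXL5 (0.114). TRIM6 is a ubiquitin ligase gene, TACC2 encodes a centrosome-associated protein, S100A11 a calcium-binding protein, INPP5D an inositol phosphatase and FBXL5 an iron-sensing ubiquitin ligase subunit. Within the class II set HLA-DOA was nearest to HLA-DPA1 (0.168), followed by HLA-DRB1 (0.301) and HLA-DRB5 (0.327), and CIITA was farthest (0.800). With 5 libraries in 2 groups, this measure depends mainly on the size of the difference between the groups.

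**Figure D4:**
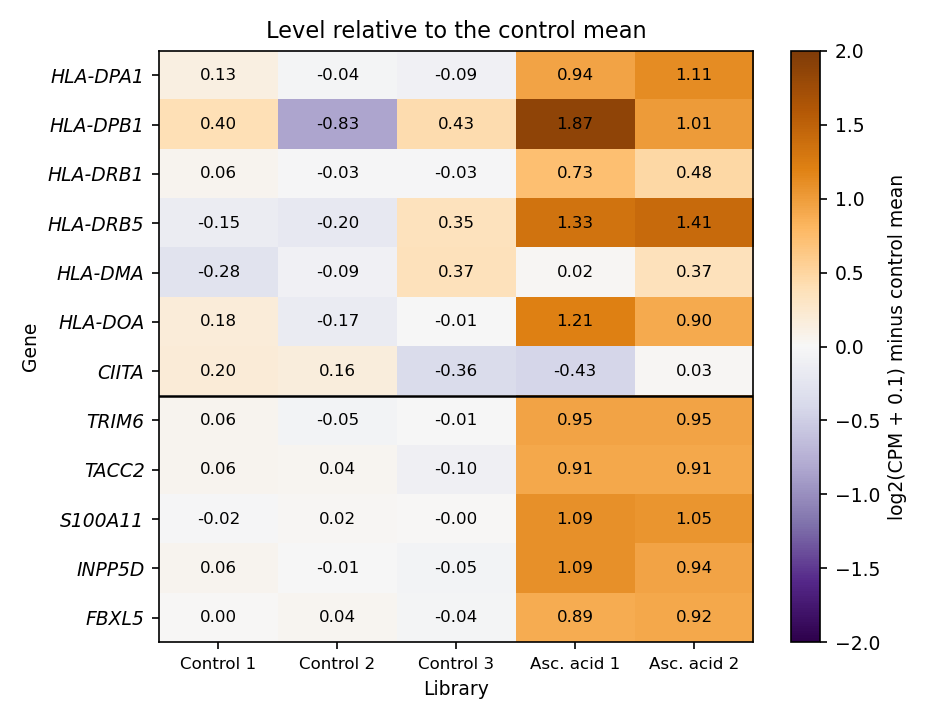
Log2(CPM + 0.1) minus the control mean for the 7 tested genes of the set (above the line) and the 5 genes most like HLA-DPA1 (below it) in each library. The treated columns are at 0.94 and 1.11 for HLA-DPA1 and at -0.43 and 0.03 for CIITA.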

How the data were processed

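RNA was measured in 5 HEK293T libraries, 3 control and 2 given ascorbic acid. The authors deposited whole-number counts per gene symbol, with no normalization. Tools named in the submitters' processing notes are DESeq2, featureCounts, STAR and Trimmomatic 0.39, with the build hg38 (GRCh38). Annotation, strand setting and multimapping rules are not given here by any source, so counts of overlapping genes and close paralogs are uncertain. Columns were matched to samples by name ("con" as control, "vc" as vitamin C). No row lacked a gene name.

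Genes were filtered with filterByExpr (minimum count 10), scaled by TMM (factors 0.984 to 1.03) and tested in R 4.3.3 by edgeR 4.0.16 (glmQLFit, robust, glmQLFTest, two-sided, 5 libraries, no covariates), with Benjamini-Hochberg adjustment over 15271 genes. The SE is the log2 fold change divided by the root of F. Tested on counts simulated for this comparison (15151 genes, with 50 set to each fold), it found 92% of those at 1.5-fold and 100% at 2-fold. Of 203 calls 7 were false. These shares are not split by level. The genes set to a fold were drawn only from levels above those of HLA-DPB1 (mean 0.299 CPM) and HLA-DRB5 (0.438 CPM). Recovery at such low levels was therefore not tested. The simulated counts had the same spread beyond counting noise for every gene, and no counting of both ends of a pair. Replicates differed by more than counting noise (chi-square per degree of freedom 3.96 to 7.27). TPM used the union exon length of 25558 genes matched to GENCODE 29 and ignores which isoform is present. Poisson intervals cover counting error only, and are too narrow if both ends of a pair were counted. DESeq2 1.42.0, limma-voom (limma 3.58.1) and other settings were alternatives, and a cyclic loess fit was chosen after seeing the data.

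The members, lists and tests were chosen with earlier results of these data known. All 9 members were named. Of each list up to 3 called genes by smallest p, or else the 2 with the highest CPM, were named, and up to 3 called genes near the members. Other genes named, such as HLA-DQA1, HLA-DOB, RFX5, RFXAP, RFXANK, NLRC5, BRD2 and those listed at or near 0, were chosen after their values were seen, as was the X1 with Y box pairing.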

Additional observations from a re-analysis of the deposited data

How the results depend on the processing

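Without a filter, all 9 genes gave a value, with 0.88 ± 0.76 for HLA-DRA and -0.11 ± 0.98 for CD74. The number of class II set genes with both treated libraries above all controls was 5, 5 to 6 with single libraries left out, and 6 with halved counts. Of all genes called (1303 higher, 879 lower), DESeq2 gave 806 higher, library totals 389 lower, the 5 CPM filter 542 lower, the added cyclic loess fit 510 lower, and the test against a fold of 1.2 gave 275 higher and 11 lower. With each library left out the counts were 790 to 1279 higher and 335 to 768 lower. Of 69 tested related genes 4 rose and 4 fell. Library totals gave 8 higher, and the test against a fold of 1.2 gave 1 higher and 0 lower. For genes near the members (1 higher, 5 lower) library totals gave 3 and 3, the 5 CPM filter 3 higher, cyclic loess 3 lower, a window of 250 kb 3 lower, a window of 1000 kb 8 and 8, and single libraries left out 1 to 2 higher and 2 to 7 lower. CTSH (adjusted p = 0.0545), LGMN, TAP2, CANX, CALR, WARS1, PFDN6 and SLC39A7 were not called against a fold of 1.2, and WARS1 not with cyclic loess (0.0521). TAP1 (0.30 ± 0.11, adjusted p = 0.0544) passed with library totals (0.0290), the 5 CPM filter, halved counts and without control library 3 (0.0290 to 0.0467).

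The replicate numbers share no stated origin, and the deviations of libraries with the same number correlated at 0.01 and 0.05. The fit with the replicate number as a block called 1076 higher and 804 lower genes, and 3 higher and 4 lower related genes. Fits without a treated library take the spread of the remaining one from the controls.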
